A study of Mus musculus with 63 samples.

Results

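Gfap, Vim, Serpina3n, Lcn2, Cd44, Osmr, Steap4, Timp1, S1pr3 and Stat3 are 10 genes that are widely used to describe reactive astrocytes. They were examined across sorted cortical cell populations of burned and sham-treated mice. The genes were chosen by name, and each symbol matched 1 of the 56980 Ensembl gene identifiers in the deposited count tables. The comparisons used 58 libraries from 17 of the 18 mice sequenced. Female C57BL/6J mice aged 12 weeks received either a full-thickness burn on the right flank or a sham procedure. The burn was made with a brass cylinder (95 °C, 19 mm wide) and covered 7 to 8% of the total body surface area. Sham mice were anaesthetised and shaved but not burned. All mice of either group had craniotomies and bilateral injections of AAV5-CamKII-eGFP and AAV1-mDlx-mRuby2 into the primary motor cortex under the same anaesthesia, and all had paracetamol in the water and buprenorphine before surgery. Some of the burned mice received further buprenorphine afterwards. Tissue was taken 5 weeks later. Cells carrying eGFP alone (CaMKII positive) and cells carrying eGFP and mRuby2 (double-positive, marked CaMKII-mDlx+ in the plots) were sorted from the motor cortex on fluorophores driven by viral promoters. ACSA2-positive cells, labelled astrocytes, and CD11b-positive cells, labelled microglia, were sorted with antibodies from cortex caudal to it. There were 4 burn and 6 sham libraries of CaMKII positive cells, 9 and 7 of double-positive cells, 9 and 8 of ACSA2-positive cells, and 8 and 7 of CD11b-positive cells.

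Astrocytes respond to injury and inflammation by enlarging their processes and by building more intermediate filament. Cytokines of the interleukin-6 family drive much of this response. They bind receptor subunits such as OSMR that pair with gp130, the product of Il6st, and Janus kinases then phosphorylate STAT3, which enters the nucleus and raises the transcription of Gfap and other genes. Several of the 10 genes are not particular to astrocytes. Vimentin fills endothelial, mural and many immune cells, CD44 is found on leukocytes, and lipocalin 2 is stored in neutrophil granules.

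The annotated start regions of the members were searched for TTCNNNGAA, the palindromic core that STAT proteins bind, because Stat3 is itself a member. Each window runs from 250 bases before to 50 bases after a gene's start in RefSeq (GRCm38.p6). The sources of the counts name both GRCm39 and mm10, so these coordinates were not joined to the counts. All 10 members had a window, and the letters occurred in those of Gfap and Steap4. Of all 32851 windows in the RefSeq table, 2726 (8.30%) held them. Counted by gene, 2582 of 27025 (9.55%) had a window with them. Both windows are printed here with the match in capitals, because only these held it.
Gfap (chr11:102897151-102897450, minus strand): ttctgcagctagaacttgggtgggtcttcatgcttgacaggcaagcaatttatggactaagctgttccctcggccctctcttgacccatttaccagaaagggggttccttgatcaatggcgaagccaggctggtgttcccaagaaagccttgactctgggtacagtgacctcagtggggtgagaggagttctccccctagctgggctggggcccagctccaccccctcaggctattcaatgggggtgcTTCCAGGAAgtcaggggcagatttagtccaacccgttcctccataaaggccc
Steap4 (chr5:7960222-7960521, plus strand): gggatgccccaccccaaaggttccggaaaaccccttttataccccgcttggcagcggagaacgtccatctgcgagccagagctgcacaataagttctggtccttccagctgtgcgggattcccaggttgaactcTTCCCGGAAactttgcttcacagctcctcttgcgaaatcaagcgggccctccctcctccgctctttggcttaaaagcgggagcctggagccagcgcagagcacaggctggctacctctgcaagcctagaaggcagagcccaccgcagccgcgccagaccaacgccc
These matches are letters in a window, and occupancy was not measured. The other 8 members had no match in this window.

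The sorted populations were first checked against marker genes. Library totals ran from 13346143 to 134703744 counts. In ACSA2-positive libraries the summed level of 10 astrocyte markers was 37146 to 51691 CPM (counts-per-million, the count scaled by the library total), against 152 to 295 CPM for 10 microglia markers. CD11b-positive libraries showed the reverse, with 21864 to 34445 CPM of microglia and 200 to 358 CPM of astrocyte markers. The virus-labelled sorts went against their labels as neurons. CaMKII positive libraries held 13975 to 26052 CPM of astrocyte markers and 4390 to 12328 CPM of endothelial markers, but 37.4 to 182 CPM of 8 general neuron markers. Double-positive libraries held 18279 to 34428 CPM of microglia markers and 10.3 to 42.9 CPM of the neuron markers. Slc1a2, the main astrocyte glutamate transporter, averaged 11229 ± 2232 CPM (SD, n = 10) in CaMKII positive libraries, and Snap25, a synaptic protein of neurons, averaged 26.8 CPM there. These populations are therefore named below by their sort and not by a neuron type. In bulk libraries such as these, a lower share of cells of a type and less RNA per cell cannot be told apart. The virus-labelled sorts came from the injected motor cortex, and the antibody sorts from cortex caudal to it. In comparisons between them, sort, region and local injection cannot be told apart.

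Gfap had its highest mean level in ACSA2-positive cells, Lcn2 and Stat3 in CD11b-positive cells, and the other 7 members in CaMKII positive cells. Stat3 was above 100 CPM in all 58 libraries. Between ACSA2-positive and CD11b-positive cells, 5 of 10 members were called higher in ACSA2-positive cells (Gfap, Vim, Serpina3n, Osmr and S1pr3), where 32.4% of all genes tested were, and 1 (Lcn2) was called lower, where 21.8% were. A call required an absolute log2 fold change (log2FC) of 1 or more and an adjusted p no higher than 0.05, from the quasi-likelihood test of edgeR with p-values adjusted by Benjamini-Hochberg over all genes. All log2FC below come from that test, with its standard error (SE). The mice behind these sorts were the same, and in all 15 mice with both libraries those 5 genes were higher, and Lcn2 lower, in the ACSA2-positive one.

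**Figure D1:**
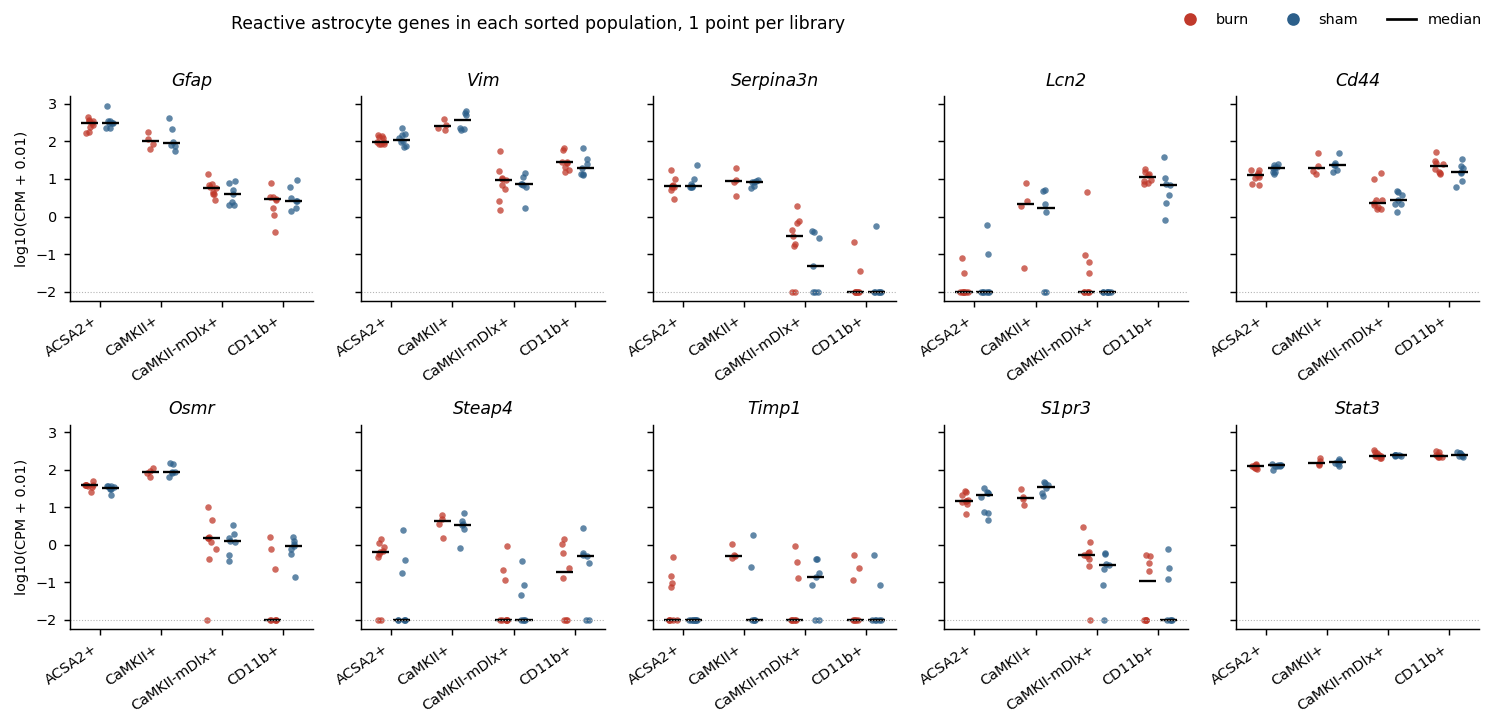
CPM of each member in each library, on a log10(CPM + 0.01) axis, by sorted population, with burn in red, sham in blue and a bar at each group's median. Points on the dotted line are libraries with 0 counts. Gfap, Serpina3n, Osmr and S1pr3 separate ACSA2-positive and CaMKII positive cells from the other sorts, Stat3 lies between 101 and 341 CPM in every library, and burn and sham points overlap for each member in each sort.

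Gfap encodes the filament protein whose increase defines reactive gliosis. It ranged from 171 to 898 CPM in the 17 ACSA2-positive libraries (median 317), from 54.0 to 430 CPM in the 10 CaMKII positive libraries (median 91.2), from 1.98 to 13.7 CPM in the 16 double-positive libraries (median 4.78) and from 0.382 to 9.65 CPM in the 15 CD11b-positive libraries (median 2.69). ACSA2-positive and CaMKII positive libraries overlapped, and neither overlapped with the other 2 sorts. Gfap was 107-fold higher in ACSA2-positive than in CD11b-positive cells (log2FC 6.74 ± 0.33, adjusted p = 5.00e-19). It was lower in CaMKII positive than in ACSA2-positive cells (log2FC −1.54 ± 0.30, adjusted p = 0.000124). The last 2 populations in this order, double-positive and CD11b-positive, did not differ beyond their spread (log2FC 0.68 ± 0.34, adjusted p = 0.175).

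Vim, the filament partner of GFAP, had another order. CaMKII positive libraries were highest, at 196 to 659 CPM (median 258), followed by ACSA2-positive libraries at 70.0 to 231 CPM (median 102), CD11b-positive libraries at 12.5 to 68.1 CPM (median 24.4) and double-positive libraries at 1.47 to 54.5 CPM (median 7.36). All 3 steps passed the test. The log2FC was 1.23 ± 0.19 for CaMKII positive against ACSA2-positive cells (adjusted p = 4.33e-06), 2.14 ± 0.22 for ACSA2-positive against CD11b-positive cells (adjusted p = 1.24e-10) and −1.61 ± 0.34 for double-positive against CD11b-positive cells (adjusted p = 0.000941). In all 10 mice with both libraries, the CaMKII positive one held more Vim than the ACSA2-positive one.

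The secreted members took 3 different patterns. Serpina3n, a serine protease inhibitor of astrocytes, had overlapping levels in CaMKII positive (3.51 to 19.4 CPM, median 8.47) and ACSA2-positive libraries (2.90 to 23.9 CPM, median 6.33), and the log2FC between them was −0.16 ± 0.27 (adjusted p = 0.72). It was at 0 counts in 12 of 15 CD11b-positive libraries and reached 1.89 CPM in double-positive libraries. By the annotation, 6.9% of the 50-base windows of its exons are shared with other genes, most of them Serpina3 paralogs, so a small part of its counts is uncertain. Lcn2, which binds iron-carrying siderophores, was present in all 15 CD11b-positive libraries at 0.803 to 37.5 CPM (median 8.999) and in 8 of 10 CaMKII positive libraries at up to 8.04 CPM. Only 4 of 17 ACSA2-positive and 4 of 16 double-positive libraries held any Lcn2 count. Lcn2 was lower in ACSA2-positive than in CD11b-positive cells by a log2FC of −7.80 ± 0.63 (adjusted p = 3.24e-13), and CaMKII positive cells exceeded ACSA2-positive cells by 5.54 ± 1.17 (adjusted p = 0.000415). Timp1, an inhibitor of matrix metalloproteinases, had counts in 6 of 10 CaMKII positive, 8 of 16 double-positive, 4 of 17 ACSA2-positive and 5 of 15 CD11b-positive libraries. Its highest value was 1.86 CPM, in a CaMKII positive sham library. With 3 counts taken as the limit of detection, which covers counting error only, the deepest and the shallowest libraries could show 0.0223 and 0.225 CPM.

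Among the surface receptors, Osmr and S1pr3 were highest in the same 2 populations. Osmr, the signalling subunit for oncostatin M, lay at 63.7 to 150.1 CPM in CaMKII positive libraries (median 87.4) and 21.8 to 49.7 CPM in ACSA2-positive libraries (median 36.3), without overlap. Double-positive libraries had at most 9.98 CPM and CD11b-positive libraries at most 1.58 CPM. The log2FC was 1.262 ± 0.145 for CaMKII positive against ACSA2-positive cells (adjusted p = 3.41e-08) and 6.15 ± 0.43 for ACSA2-positive against CD11b-positive cells (adjusted p = 9.55e-15). S1pr3, a receptor for sphingosine 1-phosphate, spanned 11.4 to 48.6 CPM in CaMKII positive libraries and 4.69 to 33.1 CPM in ACSA2-positive libraries, which did not differ beyond their spread (log2FC 0.28 ± 0.25, adjusted p = 0.446). It stayed below 1 CPM in every CD11b-positive library. Antisense overlap touches 1.01% of its exon bases, and the strand setting of the counting is not given in the sources used here. Cd44, the hyaluronan receptor, did not follow this pattern. Its medians were 22.7 CPM in CaMKII positive, 18.5 CPM in CD11b-positive, 14.9 CPM in ACSA2-positive and 2.48 CPM in double-positive libraries, and the log2FC of ACSA2-positive against CD11b-positive cells was −0.33 ± 0.23 (adjusted p = 0.201).

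Steap4, a metalloreductase of the cell surface and endosomes, was highest in CaMKII positive libraries, at 0.832 to 6.97 CPM (median 3.61). It exceeded the level of ACSA2-positive cells (log2FC 3.27 ± 0.90, adjusted p = 0.00577) and that of CD11b-positive cells (log2FC 2.68 ± 0.79, adjusted p = 0.00518). Stat3, the transcription factor at the end of the gp130 pathway, varied least. It spanned 101 to 147 CPM in ACSA2-positive, 127 to 209 CPM in CaMKII positive, 201 to 341 CPM in double-positive and 218 to 320 CPM in CD11b-positive libraries. The CD11b-positive level was above the ACSA2-positive level in all 15 mice, by less than the fold threshold (log2FC of ACSA2-positive against CD11b-positive cells −0.92 ± 0.07, adjusted p = 3.51e-14). Double-positive and CD11b-positive cells did not differ in Stat3 beyond their spread (log2FC −0.05 ± 0.07, adjusted p = 0.656).

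Counted over all 10 members, CaMKII positive cells were called higher than ACSA2-positive cells for 5 members (Vim, Lcn2, Osmr, Steap4 and Timp1; 12.7% of all genes) and lower for Gfap alone (3.5% of all genes). Against CD11b-positive cells they were higher for 6 (Gfap, Vim, Serpina3n, Osmr, Steap4 and S1pr3; 28.3% of all genes) and lower for Lcn2 (15.2%). Against double-positive cells they were higher for 8, all but Timp1 and Stat3 (26.4%), and lower for 0 (19.4%). Stat3 passed the p threshold in that comparison in the lower direction, with a log2FC of −0.90 ± 0.10. Double-positive cells were lower than ACSA2-positive cells for 7 members, all but Lcn2, Timp1 and Stat3 (30.7%), and higher for 0 (24.3%). Double-positive cells differed from CD11b-positive cells, the sort whose markers they shared, in 3 members, all lower (1.98% of all genes), and in 0 that were higher (5.6%). Those 3 were Vim, Lcn2 (log2FC −6.16 ± 0.68, adjusted p = 3.96e-08) and Cd44 (log2FC −2.38 ± 0.29, adjusted p = 2.56e-07). With the mouse as a replicate block, 2 of these calls were lost, Timp1 in CaMKII positive against ACSA2-positive cells (adjusted p = 0.243) and Steap4 in double-positive against ACSA2-positive cells (adjusted p = 0.115). Both were also lost in batch 3 alone and in sham libraries only, where Lcn2 in CaMKII positive against ACSA2-positive (adjusted p = 0.134) and CD11b-positive cells (0.0814) and Steap4 in CaMKII positive against CD11b-positive cells (0.148) were lost too. The log2FC of that Timp1 comparison was 3.66 under the block, 2.90 in batch 3 alone and 4.12 in sham libraries only. For Steap4 in double-positive against ACSA2-positive cells it was −2.44, −2.86 and −0.23 in the same order. Under the block Serpina3n was called higher in double-positive than in CD11b-positive cells (log2FC 4.13, adjusted p = 0.0414).

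Levels of different genes were compared per length, as RPKM (CPM divided by the exon length in kilobases). Exon lengths, like the shared and antisense shares above, came from GENCODE M21, an annotation older than the one behind the counts. Within ACSA2-positive cells Gfap led, with 79.4 ± 38.2 RPKM (SD, n = 17), followed by Vim (24.9 RPKM) and Stat3 (13.3 RPKM). Serpina3n (3.98 RPKM), S1pr3 (3.93 RPKM), Osmr (2.94 RPKM) and Cd44 (2.31 RPKM) formed a lower tier, and Steap4, Timp1 and Lcn2 were each below 1 RPKM. In CaMKII positive cells Vim led at 72.9 RPKM, ahead of Gfap at 33.1 RPKM. In CD11b-positive and double-positive cells Stat3 led, at 26.6 and 26.2 RPKM. In CD11b-positive cells Vim (6.31 RPKM) and Lcn2 (4.14 RPKM) followed.

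Burn was then compared with sham within each population, 5 weeks after the injury, with sequencing batch as a covariate. None of the 10 members was called in any of the 4 populations by edgeR or by DESeq2. In edgeR 0% of all genes were called in each population, so the background was 0 as well. DESeq2 called 3 genes in CaMKII positive, 2 in double-positive, 27 in ACSA2-positive and 80 in CD11b-positive cells. Unadjusted p-values under 0.05 in edgeR numbered 1 of 10 members in CaMKII positive cells (S1pr3), 1 in double-positive cells (Timp1), 2 in ACSA2-positive cells (Cd44 and Timp1) and 0 in CD11b-positive cells. Across all genes, 1096 of 28107, 1872 of 26707, 2984 of 27930 and 2036 of 26079 genes had such p-values in those populations. The median log2FC of the members was −0.03, 0.13, −0.11 and −0.27 in the same order, and that of all genes tested was 0.02, 0.00, 0.05 and 0.00. The fitted values of Timp1 in ACSA2-positive and Lcn2 in double-positive cells, with all sham libraries at 0, depend on the prior count, and with both at the bound that 3 counts allow the medians were −0.11 and 0.13. Burn and sham libraries overlapped for all 10 members in ACSA2-positive cells, for Timp1 only at 0 counts. The share of all genes whose groups overlap is not given here.

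**Figure D2:**
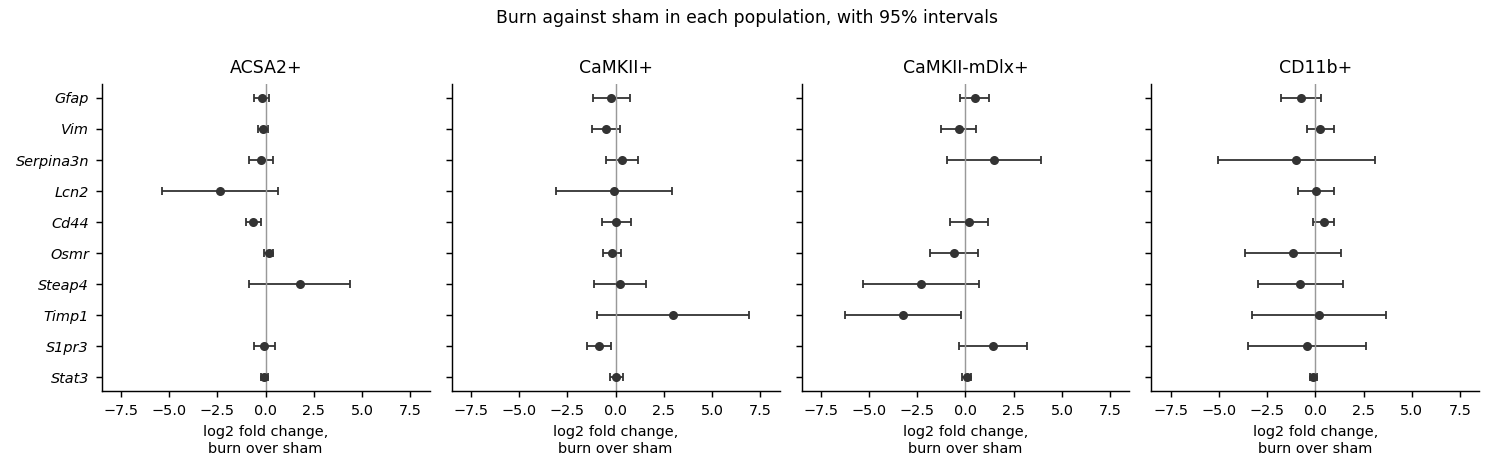
Log2 fold change of each member, burn over sham, in each sorted population. Points are edgeR estimates and bars are 95% intervals from the SE. The bars of Gfap, Vim and Stat3 cross 0 in all 4 populations, and bars are widest for members with few counts, such as Timp1. The bars of Cd44 in ACSA2-positive, Timp1 in double-positive and S1pr3 in CaMKII positive cells exclude 0, but none of these passed adjustment over all genes. Timp1 in ACSA2-positive and Lcn2 in double-positive cells are not drawn, since all their sham libraries were at 0 counts.

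Gfap in ACSA2-positive cells, the classical readout of astrocyte reactivity, ran from 171 to 436 CPM in the 9 burn libraries (median 308) and from 224 to 898 CPM in the 8 sham libraries (median 318). The highest library was the sham library of mouse 19, 2.56 times above the next sham library at 351 CPM. The log2FC of burn over sham was −0.21 ± 0.20 (adjusted p = 0.812), which corresponds to a ratio of 0.86 with a 95% interval of 0.65 to 1.14. Without mouse 19 the log2FC was 0.06. In batch 3 alone it was −0.36 (adjusted p = 0.697). Mouse 19 was also the highest of its group in Vim (231 CPM), Serpina3n (23.9 CPM), Cd44 (25.7 CPM) and Lcn2 (0.601 CPM), and not in Osmr (35.3 CPM). Its summed astrocyte markers (47354 CPM) and microglia markers (213 CPM) lay within the range of the other ACSA2-positive libraries. Stat3 was likewise highest of the sham libraries in mouse 19 (144 CPM).

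The other well-measured members in ACSA2-positive cells gave narrow intervals. The ratio of burn to sham was 0.90 for Vim (interval 0.75 to 1.09), 1.12 for Osmr (0.95 to 1.32), 0.95 for Stat3 (0.85 to 1.07), 0.84 for Serpina3n (0.56 to 1.28) and 0.95 for S1pr3 (0.65 to 1.39). A doubling or halving of Gfap, Vim, Osmr or Stat3 was outside these intervals. Steap4 had counts in 7 of 9 burn and 3 of 8 sham libraries and 83 of the 102 sham counts came from mouse 8. Its interval reached from 0.55 to 21.0.

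Cd44 was the member with the smallest p in ACSA2-positive cells. Burn libraries held 6.83 to 17.6 CPM (median 12.7) and sham libraries 13.2 to 25.7 CPM (median 20.1). The 2 groups overlapped between 13.2 and 17.6 CPM. The log2FC was −0.63 ± 0.20, with an unadjusted p of 0.00491 and an adjusted p of 0.458, so Cd44 was not called. The difference had the same sign in each batch, with means of 11.4 against 15.3 CPM in batch 1, 14.1 against 18.1 CPM in batch 2 and 12.5 against 20.7 CPM in batch 3. Batches 1 and 2 had 3 burn against 1 sham and 1 burn against 2 sham libraries. Leaving out single mice gave log2FC between −0.73 and −0.53. In CD11b-positive cells Cd44 went the other way, at 13.9 to 52.9 CPM in burn and 6.28 to 33.1 CPM in sham libraries (log2FC 0.44 ± 0.28, adjusted p = 0.813). The lowest sham value came from mouse 13, the only CD11b-positive library of batch 2, which adds nothing to the fitted burn effect. The treatment by population term of Cd44 was −1.08 ± 0.39 on the log2 scale, with an unadjusted p of 0.00966 and an adjusted p of 0.357.

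**Figure D3:**
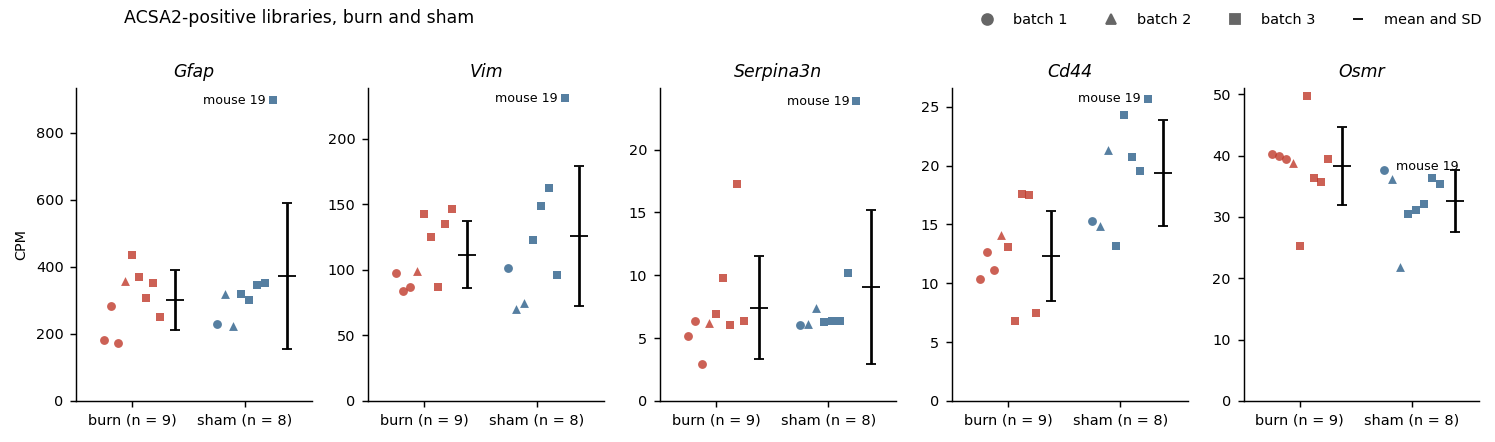
CPM of Gfap, Vim, Serpina3n, Cd44 and Osmr in the 9 burn and 8 sham ACSA2-positive libraries, on linear axes from 0. Marker shape gives the sequencing batch, and black bars are mean and SD. The sham library of mouse 19 stands above the others in Gfap, Vim and Serpina3n, and Cd44 averages 12.3 CPM in burn and 19.4 CPM in sham libraries.

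Timp1 in ACSA2-positive cells had 20 counts in all over the 9 burn libraries, from 4 of them, and 0 counts in the 8 sham libraries. The largest single value was 9 counts in mouse 22. Its unadjusted p was 0.0127 and its adjusted p 0.458. No fold is given against a group with 0 counts. In double-positive cells Timp1 showed counts in 3 of 9 burn and 5 of 7 sham libraries (unadjusted p = 0.0472, adjusted p = 0.709).

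In CaMKII positive cells the 4 burn libraries held 11.4, 16.9, 30.3 and 18.5 CPM of S1pr3 in mice 2, 20, 22 and 24, and the 6 sham libraries held 19.9 to 48.6 CPM (median 35.7). The log2FC was −0.87 ± 0.32 with an unadjusted p of 0.018 and an adjusted p of 1.00. In batch 3 alone it was −0.63. The summed level of 10 mural and fibroblast markers was 721 to 1043 CPM in burn and 953 to 1694 CPM in sham libraries, with overlap. The part of these markers in the S1pr3 difference was not tested. Gfap in the same burn libraries was 61.1, 182, 118 and 85.6 CPM, and 54.0 to 430 CPM in sham libraries (log2FC −0.22 ± 0.49, adjusted p = 1.00).

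In double-positive cells the burn library of mouse 10 was highest in 7 members, Vim (54.5 CPM), Cd44 (14.6 CPM), Lcn2 (4.38 CPM), Osmr (9.98 CPM), Serpina3n (1.89 CPM), Steap4 (0.913 CPM) and Timp1 (0.945 CPM). It also held the highest summed endothelial markers (747 CPM, against 69.2 to 375 CPM in the other libraries) and neutrophil markers (42.2 CPM, against 0 to 2.57 CPM). Their part in these values was not tested. Lcn2 had 139 of the 144 counts of the 9 burn libraries in that library, and 0 in the 7 sham libraries. All 3 double-positive libraries of batch 1 came from burned mice, so batch 1 carries no information on burn in this population. Without the batch term the log2FC of Vim changed from −0.36 to 0.70 and that of Osmr from −0.60 to 0.71, and neither was called.

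Lcn2 in CD11b-positive cells ran from 7.48 to 18.1 CPM in the 8 burn libraries (median 11.0) and from 0.803 to 37.5 CPM in the 7 sham libraries (median 6.92). The log2FC was 0.02 ± 0.48 (adjusted p = 1.00). Batch 2 of this sort held only the sham library of mouse 13 (Lcn2 2.34 CPM). That library adds nothing to the fitted burn effect but is part of the sham range and median. Its Vim (12.5 CPM) and Cd44 (6.28 CPM) were the lowest of the sham libraries. The sham library of mouse 16 was 3.58 times above the next sham library, and without it the log2FC was 0.91, still not called. Neutrophil genes moved with Lcn2. The summed level of S100a8, S100a9, Ngp, Camp, Ltf, Retnlg and Mpo lay between 17.0 and 390 CPM in these 15 libraries, with 77.6 to 171 CPM in burn and 17.0 to 390 CPM in sham libraries. Across the 15 libraries Pearson's r between Lcn2 and this list was 0.90 and Spearman's rho 0.94, on log2 values, and r was 0.93 without the 2 libraries farthest from the median list level. Lcn2 amounted to 2.05 to 13.7% of the list's summed CPM (median 9.61%). The libraries share a sort and a batch structure, CD11b is carried by neutrophils as well as microglia, and the part of neutrophil RNA in the Lcn2 values was not tested further. In ACSA2-positive libraries the list summed to at most 0.216 CPM and S100a9 was at 0 in all 17.

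**Figure D4:**
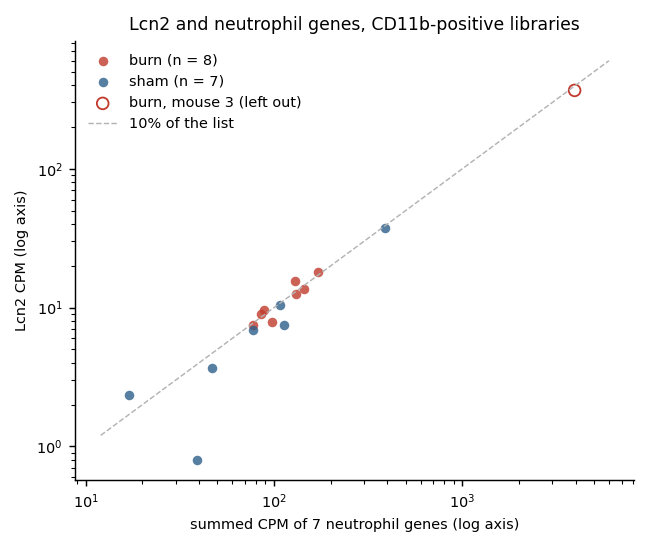
Lcn2 CPM against the summed CPM of 7 neutrophil genes in the CD11b-positive libraries, on log axes. Burn is red, sham blue, and the open circle is the burn library of mouse 3, which was left out of all comparisons. The dashed line marks 10% of the list, and the libraries used lie at 2.05 to 13.7%.

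The members were also set against each other within populations, as descriptions over libraries that share batch and depth (Pearson's r of log2 CPM after subtracting batch means). In CD11b-positive cells Vim and Cd44 varied together (r = 0.87, n = 15), and their r with Lcn2 was 0.71 and 0.72. Against the neutrophil list r was 0.73 for Vim and 0.65 for Cd44. Without subtracting batch means it was 0.71 and 0.76, and it fell to 0.55 and 0.60 without the 2 libraries farthest from the median list level. In CaMKII positive cells the highest values were those of Serpina3n with Cd44 (r = 0.87, n = 10) and Vim with Osmr (r = 0.85). Without subtracting batch means these pairs gave r of 0.52 and 0.64 and Spearman's rho of 0.47 and 0.50. Batch 1 held only 1 burn and 1 sham library of this sort. Against the endothelial list r was 0.88 for Osmr, 0.83 for Vim and 0.52 for S1pr3. Without subtracting batch means it was 0.90, 0.66 and 0.55, and it fell to 0.75, 0.37 and −0.03 without the 2 libraries farthest from the median list level. In ACSA2-positive cells Gfap and Serpina3n gave r = 0.70 (n = 17), and 0.36 without mouse 19. Gfap and Vim gave 0.56, and 0.07 without mouse 19. S1pr3 in ACSA2-positive cells gave r = 0.72 with the endothelial and 0.75 with the mural and fibroblast list. Of 16171 genes with a mean of at least 1 CPM in ACSA2-positive libraries, the 5 most like Gfap were Gm10561 (r = 0.85), Fkbp9 (0.85), Ech1 (0.84), Rrs1 (0.80) and Man2b2 (0.80). Serpina3n ranked 69 and Vim 354. None of those 5 remained among the first 5 without mouse 19.

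Sequencing batch was compared as a second known difference between libraries. None of the 10 members was called in batch 3 against batches 1 and 2 in CaMKII positive (0% of all genes), double-positive (1.12%), ACSA2-positive (1.03%) or CD11b-positive cells (0.399%) in edgeR. Unadjusted p-values under 0.05 were found for 0, 5, 4 and 1 of the 10 members in that order, and for 1509 of 28107, 5620 of 26707, 4777 of 27930 and 3837 of 26079 genes. In double-positive cells these 5 were lower in batch 3, Vim (log2FC −1.23 ± 0.43, adjusted p = 0.0943), Osmr (−1.66 ± 0.58, adjusted p = 0.0952), Lcn2, Timp1 and Steap4, and the median of the members was −1.30 against −0.04 for all genes. The 3 double-positive libraries of batch 1, mouse 10 among them, were all from burned mice. In CD11b-positive cells the gene was Cd44 (0.84 ± 0.35, adjusted p = 0.234). Vim was higher in batch 3 of ACSA2-positive cells by a log2FC of 0.60 ± 0.14 (adjusted p = 0.0274), below the fold threshold, and Gfap by 0.53 ± 0.20 (adjusted p = 0.169). The effect of burn was also compared directly between populations. No member was called in the treatment by population term for ACSA2-positive against CD11b-positive cells (0.00323% of all genes) or for CaMKII positive against double-positive cells (0.00977%). Unadjusted p-values under 0.05 were obtained for Cd44 and Timp1 in the former and for Timp1 and S1pr3 in the latter. The number of all genes with such p-values in these terms is not given here, so no background stands beside them.

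Genes of the gp130 pathway upstream of the members were compared between the same populations. Osm, the ligand of OSMR, averaged 43.1 ± 6.79 CPM (SD, n = 15) in CD11b-positive cells and was at 0 in 13 of 17 ACSA2-positive libraries (log2FC of ACSA2-positive against CD11b-positive cells −10.44). Il6 (log2FC −6.19) and Clcf1 (log2FC −7.54), a cytokine that acts through the CNTF receptor, were lower in ACSA2-positive cells in the same way. Lif was the opposite, with 11.9 ± 3.251 CPM in ACSA2-positive and 0.202 CPM in CD11b-positive cells (log2FC 6.18). Of the 8 cytokines of this family, 4 were called higher and 3 lower in ACSA2-positive cells, where 32.4% and 21.8% of all genes were. Among 11 receptors, kinases and feedback genes, 1 was called higher, Cntfr (log2FC 9.57), the ligand-binding CNTF receptor subunit, and 5 lower, among them Il6ra (log2FC −6.02), Tyk2 (−1.98) and Il6st (−1.49). Socs3, the feedback inhibitor of the pathway, ranged from 2.88 to 103 CPM in ACSA2-positive libraries and averaged 536 CPM in CD11b-positive ones. Lifr had means of 233 to 257 CPM in the 4 populations. CaMKII positive cells had means of 7.12 CPM of Osm, 63.9 CPM of Il6ra and 178 CPM of Cntfr.

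**Figure D5:**
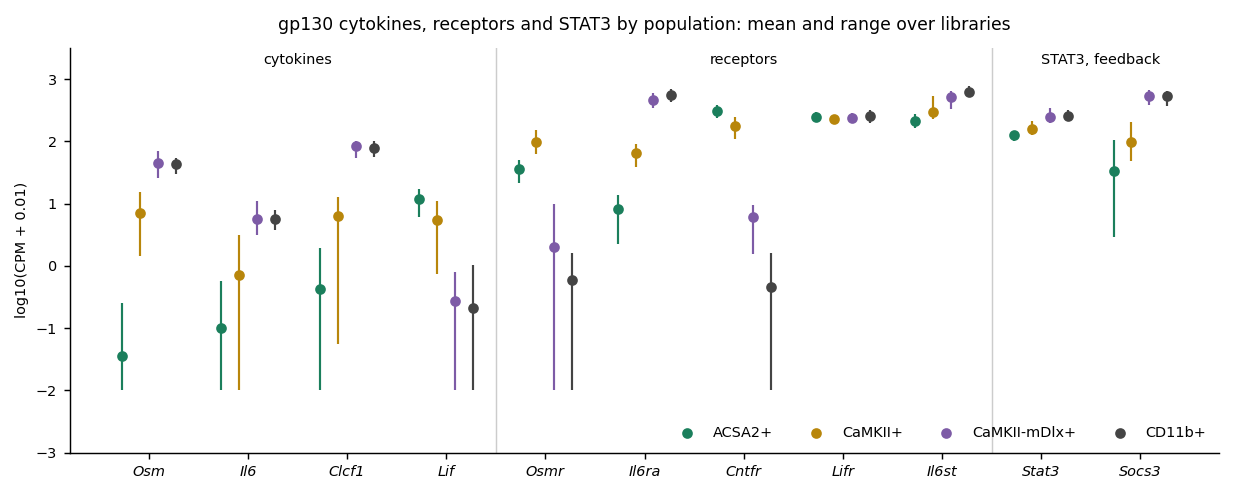
Mean CPM of gp130 cytokines, receptors, Stat3 and Socs3 in each population, on a log10(CPM + 0.01) axis, with lines from the lowest to the highest library (n = 17 ACSA2-positive, 10 CaMKII positive, 16 double-positive, 15 CD11b-positive). Levels are to be compared between populations for a gene, not between genes. Osm, Il6 and Clcf1 are high in CD11b-positive and double-positive cells, and Osmr and Cntfr in ACSA2-positive and CaMKII positive cells.

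Other lists of reactive genes were compared in the same way, against the same shares of all genes. Of 4 further pan-reactive genes, 3 were called higher in ACSA2-positive than in CD11b-positive cells, Aspg (log2FC 7.59), Hspb1 (3.01) and Cp (1.255), and Cxcl10 was called lower (−2.49). Of 12 genes linked to the A1-type response, 3 were called higher and 7 lower, including H2-D1 (−3.63), Ggta1 (−2.79), H2-T23 (−3.52) and Fkbp5 (−5.57). Of 12 linked to the A2-type response, 5 were higher and 5 lower, led by Cd14 (−8.49), Clcf1, Cd109 (8.88) and Tm4sf1 (6.04). The filament partners Plec (2.80), Synm (5.12), Nes (2.33) and Des (6.51) were called higher, 4 of 5. The median log2FC was 2.13 for the pan-reactive, −2.30 for the A1-type, 0.15 for the A2-type and 2.80 for the filament genes, and 0.28 for all genes tested. In CaMKII positive against ACSA2-positive cells, 9 of the 12 A1-type genes were called higher, among them H2-D1 (3.23), H2-T23 (3.37), Srgn (3.04) and Iigp1 (3.78), and 0 lower, where 12.7% and 3.5% of all genes were. The median of the list was 2.94 and that of all genes 0.00. Microglia and endothelial markers moved with them, with 9 and 10 of 10 called higher in CaMKII positive cells, and their part was not tested. These sorts also differ in region and injection, which cannot be told apart from the sort.

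Burn and sham were also compared for these lists. Of 71 further genes in 7 lists, 0 were called in edgeR in any population. Unadjusted p-values under 0.05 were found for 2 of the 69 tested in CaMKII positive and 3 of 67 in double-positive cells. They were found for 4 of 67 in ACSA2-positive and 6 of 65 in CD11b-positive cells. The numbers over all genes, for these lists and the endothelial markers below, are given with the burn comparison above. In ACSA2-positive cells the smallest p-values were those of Cp (log2FC 0.22 ± 0.22) and Hspb1 (0.22 ± 0.26) among pan-reactive genes, Iigp1 (0.87 ± 0.35) and C3 (1.16 ± 0.72) among A1-type genes, and Tm4sf1 (0.51 ± 0.27) and S100a10 (−0.37 ± 0.21) among A2-type genes. For the pathway they included Ctf1 (0.58 ± 0.37) among cytokines, and Il11ra1 (−0.21 ± 0.11) and Pias3 (0.18 ± 0.12) among receptors and feedback genes. Among filament partners and partners of the other members they were Synm (0.49 ± 0.20), Des (0.60 ± 0.37), Slc40a1, the iron exporter (0.50 ± 0.16), and Timp2 (−0.16 ± 0.09). The lowest adjusted p of all these was 0.458. Of 10 endothelial markers, 10 had a positive log2FC in ACSA2-positive cells, 8 with an unadjusted p under 0.05 and 0 called, such as Pecam1 (0.61 ± 0.23, adjusted p = 0.458). Their summed level was 561 to 1650 CPM in burn and 170 to 957 CPM in sham libraries. Their part in the values of the genes above was not tested.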

How the data were processed

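RNA of sorted cortical cells was sequenced in 63 libraries from 18 mice. The counts deposited by the authors are raw read counts per Ensembl gene, made by trimming the first 15 bases with fastp, aligning with STAR and counting in R. The build is named as GRCm39 and as mm10, and the strand setting is not given in the sources used here. The authors' normalised tables were not used. There were 0 columns of unmapped samples.

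Mouse 3 (4 libraries; skin ulceration) and mouse 8 in the double-positive sort were left out, the first as in the study's sample table and the second as in its methods, which left 58 libraries of separate mice per group with 13346143 to 134703744 counts each. Groups came from the labels and batches from the study's sample table. Levels are CPM. Genes with at least 10 counts in total were tested with edgeR 4.0.16 (quasi-likelihood, TMM, batch and treatment, plus cell type between populations) in R 4.3.3 with Benjamini-Hochberg adjustment, checked on simulated data. DESeq2 1.42.0, other normalizations and filters, left-out libraries, batch 3 alone and the mouse as a block were alternatives. Intervals are 95% normal intervals from the SE.

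Same-numbered libraries come from the same mouse. Their deviations had a median correlation of 0.094 over 15 mice (ACSA2-positive and CD11b-positive) and 0.079 over 9 mice (CaMKII positive and double-positive).

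The members and gene lists were chosen with earlier results of these data known. Besides the members, up to 4 called genes of a list with the smallest p were named, or 2 where none was called, plus up to 3 marker genes per cell type and the 5 genes most like Gfap. Socs3 and the other pathway levels outside this rule were chosen after their values were seen. The value of 1 gene that this rule names is not reported here.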

Additional observations from a re-analysis of the deposited data

Results flagged for a closer look

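Of 78 groups of 4 to 9 libraries, 31 had 1 library far from the others by Dixon's criterion, which chance meets in about 1 group in 20 for normally distributed values. That rate does not hold for groups with many libraries at 0, where 1 library with counts can meet the criterion by itself. Of the 31 groups, 18 had a library at 0 and 14 had most libraries at 0. The values are CPM. In ACSA2-positive cells these were the sham library of mouse 19 for Gfap (898), Serpina3n (23.9) and Lcn2 (0.601), the sham library of mouse 13, which was lowest, for Osmr (21.8) and Stat3 (100.8), and the sham library of mouse 8 for Steap4 (2.54). The burn libraries were those of mouse 23 for Serpina3n (17.3), mouse 24 for Lcn2 (0.0694) and mouse 22 for Timp1 (0.458).

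In double-positive cells the burn library of mouse 10 stood apart for Vim (54.5), Serpina3n (1.89), Lcn2 (4.38), Osmr (9.98), Steap4 (0.913) and Timp1 (0.945). The others were the burn libraries of mouse 20 for Gfap (13.7) and mouse 22 for S1pr3 (2.98), and the sham library of mouse 17 for Steap4 (0.368). In CaMKII positive cells the sham library of mouse 8 stood apart for Cd44 (50.7) and Timp1 (1.86) and the burn library of mouse 20 for Timp1 (1.04).

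In CD11b-positive cells the sham library of mouse 16 stood apart for Vim (68.1) and Lcn2 (37.5), and that of mouse 17 for Steap4 (2.84) and S1pr3 (0.786). Sham libraries of mouse 19 for Serpina3n (0.536) and mouse 15 for Timp1 (0.516) did so as well. The burn libraries were those of mouse 2 for Gfap (7.63), mouse 23 for Serpina3n (0.195), mouse 21 for Cd44 (52.9) and mouse 22 for Timp1 (0.536).

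The burned mouse 3, with skin ulceration, was left out of all comparisons, and several of its values lay above the highest sham library. Lcn2 reached 366.5 CPM in its CD11b-positive library (highest sham 37.5), 23.8 in CaMKII positive (5.16), 3.66 in ACSA2-positive (0.601) and 1.35 in double-positive cells (0). Osmr was 87.3 CPM in its ACSA2-positive library (37.6), 179 in CaMKII positive (150.1) and 4.03 in double-positive cells (3.29). Stat3 was 149 CPM in ACSA2-positive (144), 221 in CaMKII positive (189), 318 in double-positive (255) and 325.5 in CD11b-positive cells (301). Its CD11b-positive library also held 199.5 CPM of Vim (68.1), 158 of Cd44 (33.1) and 8.78 of Steap4 (2.84). The 7 neutrophil genes summed to 3941 CPM in that library, against 17.0 to 390 CPM in the CD11b-positive libraries used, and Lcn2 amounted to 9.30% of that sum. Their part in these values was not tested. Steap4 was 1.199 CPM in its double-positive library (0.368), and Timp1 0.0976 CPM in its ACSA2-positive library, where all sham libraries were at 0. These are the values of 1 mouse and carry no test.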

How the results depend on the processing

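The number of members called was within 1.5 times the main count in 159 of 160 recomputations. The exception was batch 3 against batches 1 and 2 in double-positive cells, where DESeq2 called 1 member. Of 1550 recomputed log2FC, 69 changed sign, 10 lost and 8 gained a call. The cause was not tested. None of those that changed sign was called. With the mouse as a replicate block, which pairs libraries of 1 animal, the log2FC became 0.61 for Lcn2 in double-positive against ACSA2-positive cells, −0.40 and −0.0063 for the treatment by population terms of S1pr3 and Stat3 in ACSA2-positive against CD11b-positive cells, and 0.82 for that of Vim in CaMKII positive against double-positive cells. The calls that the block changed are given with the pair comparisons, as are those lost in sham libraries only. In batch 3 alone, Steap4 in double-positive (adjusted p = 0.207) and Timp1 in CaMKII positive against ACSA2-positive cells (0.122) lost their call, and with all deposited libraries Steap4 in CaMKII positive against CD11b-positive cells did (0.0541). Calls were gained by Steap4 in double-positive against CD11b-positive cells under DESeq2 (0.0235), with all deposited libraries (0.0219) and in batch 3 alone (0.0253). Against ACSA2-positive cells, double-positive cells gained Lcn2 in batch 3 alone (0.0366), Timp1 in sham libraries only (0.0134) and Stat3 without a filter (log2FC 1.07).

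For burn against sham without the batch term, the log2FC became 0.50 for Lcn2 and −0.018 for Cd44 in CaMKII positive, 0.70, 0.71 and 0.86 for Vim, Osmr and Steap4 in double-positive, and 0.32 for S1pr3 in CD11b-positive cells. In batch 3 alone it became 0.33 for Gfap in CaMKII positive, and −0.024 and −0.24 for Vim and Lcn2 in CD11b-positive cells. With all deposited libraries it became 0.12, −0.068 and 0.076 for Lcn2, Cd44 and Osmr in CaMKII positive, and 0.17 for Steap4 in CD11b-positive cells, where the mean of Lcn2 moved to 33.1 CPM and that in ACSA2-positive cells to 0.247 CPM. With library size only it became −0.0019 for Lcn2 in CD11b-positive cells.

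Between populations, the log2FC became 0.40 for Cd44 in ACSA2-positive against CD11b-positive cells, and −0.54 and −2.07 for Timp1 in CaMKII positive against CD11b-positive and double-positive cells, in sham libraries only. In batch 3 alone it became −0.044 for Cd44 in CaMKII positive against CD11b-positive cells (−0.22 with all deposited libraries) and −1.30 for Timp1 in double-positive against CD11b-positive cells, and the treatment by population terms of Vim and Cd44 in CaMKII positive against double-positive cells became 0.44 and 0.28. With library size only it became 0.0135 for Serpina3n in CaMKII positive against ACSA2-positive cells, 0.0005 for Stat3 in double-positive against CD11b-positive cells, −0.014 for the treatment by population term of Stat3 in CaMKII positive against double-positive cells and 0.0071 for Stat3 between batches in CD11b-positive cells.

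Leaving out single mice, the burn log2FC spanned or reached 0 for 18 values. In CaMKII positive cells these were Gfap (−0.62 to 0.32), Serpina3n (−0.14 to 0.72), Lcn2 (−0.60 to 0.51), Cd44 (−0.66 to 0.35), Steap4 (−0.077 to 0.74) and Stat3 (−0.11 to 0.16). In double-positive cells they were Gfap (−0.0027 to 0.84), Lcn2 (0 to 1.44), Cd44 (−0.40 to 0.36) and Steap4 (−4.12 to 0.51), and in ACSA2-positive cells Gfap (−0.32 to 0.0555), Serpina3n (−0.47 to 0.075) and S1pr3 (−0.36 to 0.12). The 0 of Lcn2 in double-positive cells came without mouse 11. The remaining counts then lay in batch 1, where all libraries were burn, so no burn effect could be estimated. Without mouse 10, Lcn2 fell under the filter of 10 counts and was not fitted. In CD11b-positive cells they were Vim (−0.033 to 0.68), Lcn2 (−0.25 to 0.91), Steap4 (−1.23 to 0.12), Timp1 (−3.47 to 2.87) and S1pr3 (−1.17 to 1.38). Timp1, Lcn2, Steap4 and Serpina3n held 0 counts in some libraries, and a library of the lowest depth could not show less than 0.225 CPM at a limit of 3 counts. The ranking of genes like Gfap without mouse 19 was chosen after seeing the data.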
